A study of Mus musculus with 6 samples.

Results

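The genes described here make up the core of MHC class I antigen presentation, 10 genes in all of the 23793 rows in the authors' deposited table. They are the classical heavy chain genes H2-K1 and H2-D1, the light chain gene B2m, the peptide transporter genes Tap1 and Tap2, the tapasin gene Tapbp, the immunoproteasome genes Psmb8, Psmb9 and Psmb10, and the transactivator gene Nlrc5. They were listed by symbol for their place in the pathway. The rule itself uses no measured value, but the list was drawn up with earlier results of these data known. Rows carrying exactly that symbol were found for 9 members. H2-D1 stands in a row shared with H2-L, so its value is that of both symbols, and it is called the H2-D1 row below. The authors had tested all 10.

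The cells were i660BM, pro-B cells of C57BL/6 mice that grow as a line with interleukin 7 and in which doxycycline switches on PU.1. Pro-B cells stand at an early step of B cell development. Spi1 encodes PU.1, which binds DNA through an ETS domain and acts in myeloid and B cells. The 3 non-induced libraries came from cells that carry the inducible system but were not induced, and the 3 induced libraries from cells treated for 48 h with doxycycline at 70 ng/ml. For each gene the table gives 1 FPKM value in each group, meaning fragments scaled for transcript length and for library depth, and none for a single library, so no standard deviation between libraries can be given. The labels name no separate cultures for the 3 libraries of a group, and the spread behind the deposited p-values may therefore be technical. No library received the drug without the induced factor, so their effects cannot be told apart. Spi1 was at 36.0 FPKM without and 246 FPKM with induction in the authors' deposited table, which matches the group labels.

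Most of the listed markers of pro-B cells were present, and 9 of 11 reached 1 FPKM. Kit was listed at 0 in both groups, and Rag1 at 0.00348 FPKM without and 0.434 FPKM with induction. The 11 summed to 2679 FPKM without and 4103 FPKM with induction. Of the 10 tested, 8 were higher in induced cells and 0 lower at a q-value under 0.05. Of all tested genes 19.0% were higher and 16.1% lower by that rule. The markers of other cell types were low beside these, apart from Xbp1 in the plasma cell list. The 8 macrophage and granulocyte markers found, of 9 listed, summed to 2.28 FPKM without and 23.3 FPKM with induction. Of these only 3 were tested, and all 3 were higher in induced cells at a q-value under 0.05. They were Lyz2 (0.361 to 15.2 FPKM), Cd68 (1.85 to 6.86 FPKM) and Mpeg1 (0.0514 to 0.907 FPKM). The values of Elane, S100a8 and S100a9 were 0 without and with induction. The 6 dendritic cell markers summed to 0.361 and 4.81 FPKM, and Siglech made up 3.98 FPKM of the latter. Only 2 of them, Siglech and Flt3, were tested, and both were higher in induced cells by the same rule. The macrophage and dendritic cell sums were both higher in induced cells, and their part in the results on class I genes was not tested. The T cell, NK cell, stromal and erythroid lists each summed to at most 0.306 FPKM in either group. The 3 plasma cell markers summed to 81.0 and 57.8 FPKM, of which Xbp1 made up 77.5 and 54.9 FPKM. All 3 were tested, and 2, Sdc1 and Xbp1, were lower and 0 higher in induced cells at a q-value under 0.05.

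MHC class I molecules show peptides from inside the cell to CD8 T cells. Proteasomes cut cytosolic proteins, and in immunoproteasomes the catalytic subunits are replaced by the products of Psmb8, Psmb9 and Psmb10, which changes the cleavage preference. The TAP transporter, a dimer of the Tap1 and Tap2 products, moves peptides into the endoplasmic reticulum. There tapasin, calreticulin and the Pdia3 product hold the heavy chain and beta-2 microglobulin until a peptide binds. NLRC5, partnered with the RFX and NF-Y factors, drives class I promoters, and interferons and NF-kB raise the same genes.

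Members lie mainly in the MHC on chromosome 17. The promoters of 6 members are printed, in 5 sequences, because they show the sequence elements through which class I genes are usually read. They cover 3 members that rose, Tap1, Psmb9 and Tapbp, and H2-K1, H2-D1 and B2m, which were not called. The promoters were thus picked with the calls known. A call in 1 gene and none in another does not show that the genes differ, as with Psmb9 (log2 change 0.27) and B2m (0.16). Whether the promoter elements go with the changes was not tested. The sequences are from RefSeq (GRCm38.p6, the assembly that mm10 names), 5′ to 3′, and end at the base before the annotated start, for H2-K1 the outer of 2 annotated starts. GENCODE, used for the gene coordinates below, starts Tapbp, H2-D1 and Psmb9 further upstream, so those windows lie inside its annotated genes. Capitals mark matches, on either strand, to an IRF form GAANNGAAA, the interferon response core GAAANNGAA, a kappaB form GGGNNTTNC and the CCAAT box that NF-Y binds.
H2-K1, chr17:34000348-34000597, minus strand: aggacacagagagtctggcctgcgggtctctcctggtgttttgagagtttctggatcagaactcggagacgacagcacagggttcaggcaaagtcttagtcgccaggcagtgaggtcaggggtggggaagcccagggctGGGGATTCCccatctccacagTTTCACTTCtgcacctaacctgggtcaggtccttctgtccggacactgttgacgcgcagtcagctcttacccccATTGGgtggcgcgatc
H2-D1, chr17:35262844-35263093, plus strand: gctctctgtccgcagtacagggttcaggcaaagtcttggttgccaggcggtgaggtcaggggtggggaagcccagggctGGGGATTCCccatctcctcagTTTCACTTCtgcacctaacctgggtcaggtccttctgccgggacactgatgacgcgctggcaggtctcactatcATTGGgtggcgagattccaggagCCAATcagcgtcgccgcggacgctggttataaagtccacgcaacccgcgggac
B2m, chr2:122147437-122147686, plus strand: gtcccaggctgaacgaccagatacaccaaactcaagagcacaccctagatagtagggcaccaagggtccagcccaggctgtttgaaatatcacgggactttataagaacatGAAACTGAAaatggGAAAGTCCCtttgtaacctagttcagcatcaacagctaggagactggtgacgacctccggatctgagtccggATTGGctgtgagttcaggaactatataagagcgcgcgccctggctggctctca
Tapbp, chr17:33919228-33919477, plus strand: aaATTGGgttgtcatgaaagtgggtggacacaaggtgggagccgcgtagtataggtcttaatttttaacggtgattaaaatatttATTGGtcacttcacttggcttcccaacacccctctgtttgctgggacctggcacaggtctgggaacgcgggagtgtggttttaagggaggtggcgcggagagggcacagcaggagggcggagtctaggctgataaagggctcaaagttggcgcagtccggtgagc
Tap1 and Psmb9, chr17:34187331-34187555, plus strand: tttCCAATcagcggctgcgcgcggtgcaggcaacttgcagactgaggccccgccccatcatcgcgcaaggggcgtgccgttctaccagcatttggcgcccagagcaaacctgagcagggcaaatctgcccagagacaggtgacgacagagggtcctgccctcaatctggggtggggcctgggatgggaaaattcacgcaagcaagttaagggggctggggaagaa

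The H2-K1 and H2-D1 promoters shared a kappaB form GGGGATTCC, then an IRF form GAAGTGAAA on the opposite strand, then a CCAAT box on the opposite strand, and the H2-D1 window held another CCAAT box nearer to its start. The H2-K1 window counted from its other annotated start, which is not printed here, also held such a box. Of the 250 bases of each window 190 were aligned with the other, and 170 of these 190 matched (89.5%). In B2m the interferon response core GAAACTGAA lay next to a kappaB form GGGACTTTC on the opposite strand. The last sequence is the whole 225 bases between the start sites of Psmb9, read leftward, and Tap1, read rightward. It held a CCAAT box near the Psmb9 end and no match to the other 3 motifs. RefSeq windows were found for 8 members, and Tap2 and Nlrc5 had none. Over the 250 bases before the start, the kappaB form was found in H2-K1, H2-D1 and B2m, or 3 of 8 members, against 13% of 32851 mouse promoter windows. The IRF form was found in H2-K1 and H2-D1, or 2 of 8, against 6.31% of windows, and the interferon response core in B2m, or 1 of 8, against 7.13%. The CCAAT box was found in 6 of 8 members, against 33.8% of windows. The box counted for Tap1 and that counted for Psmb9 are the same bases, in the stretch between their starts. The H2-K1 and H2-D1 windows resemble each other as given above, so their shared matches are not independent either. The composite ETS and IRF form GGAANNGAA, which can overlap the IRF form, was found in 1 of 8, Psmb10, against 6.99% of windows. The PU.1 core GAGGAA (23.3% of windows) was in none of the 8. A match is a description of letters only. The motifs were chosen after the promoters had been seen.

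Class I presentation genes were abundant before induction and changed little with it. Tapbp, Tap1 and Psmb9 rose, by 1.36-fold, 1.24-fold and 1.20-fold, and no member fell, the lowest deposited p among members with a lower value being 0.0273 for Nlrc5. The other 7 were not called, 5 of them with a higher and 2 with a lower value in induced cells. A gene is said to rise or fall where the q-value in the authors' deposited table was under 0.05. By that rule 3 of 10 members were higher, where 19.0% of the 10657 tested genes were higher and 16.1% lower. The median log2 change was 0.14 over the members and -0.01 over all tested genes, and 83.0% of tested genes changed by less, in either direction, than the most changed member. As the error of each change, the log2 change was divided by the deposited test statistic. This implied standard error ranged from 0.12 to 0.15 over the members. From the steps between the lowest FPKM values the depth was about 119000000 fragments in the non-induced and 122000000 in the induced group. By that estimate at least 12858 fragments stood behind each member's group value, so counting error (0.882% for the least covered) was small beside the implied standard errors. RNA was measured in bulk, so fewer expressing cells and less RNA per cell cannot be told apart.

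**Figure D1:**
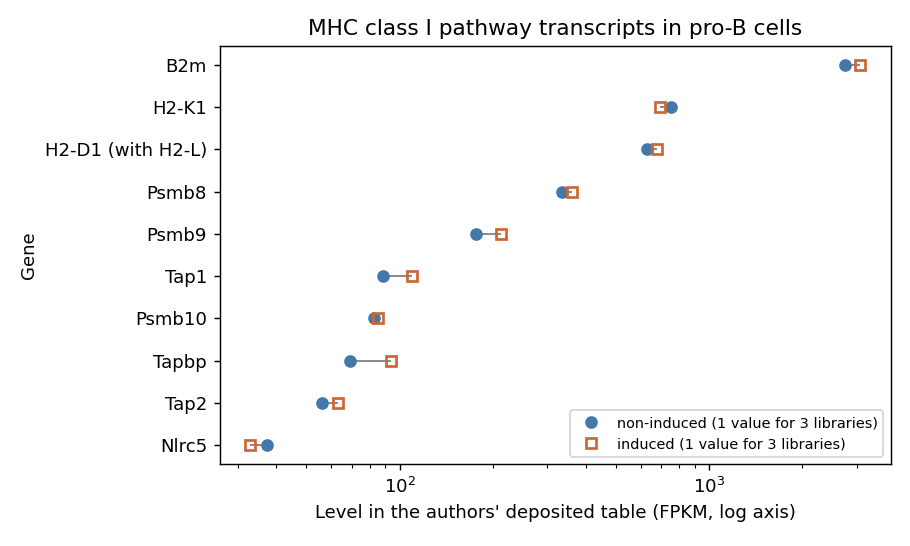
Level of each member in FPKM (horizontal log axis) in non-induced (filled circles) and induced cells (open squares), 1 deposited value for the 3 libraries of each group. B2m stands highest in each group and Nlrc5 lowest, and the widest gap between the groups is that of Tapbp, at 68.9 against 93.9 FPKM.

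The heavy chain genes showed no called change. H2-K1 (chromosome 17, 33996017 to 34000347, minus strand) encodes the K heavy chain, and stood at 751 FPKM without and 696 FPKM with induction in the authors' deposited table. Its log2 change was -0.11 (implied standard error 0.13), which gives an approximate 95% interval of -0.37 to 0.15 (deposited q = 0.330). The row of H2-D1 (chromosome 17, 35262730 to 35267499, plus strand), which encodes the D heavy chain, stood at 631 FPKM without and 679 FPKM with induction. Its log2 change was 0.10 (implied standard error 0.14, interval -0.18 to 0.39, q = 0.357 in the authors' deposited table). The values of these heavy chains thus went opposite ways by less than their errors. Their sum was nearly level, at 1382 FPKM without and 1374 FPKM with induction. The ratio of H2-K1 to the H2-D1 row was 1.19 in non-induced and 1.02 in induced cells, a log2 difference of -0.21 with an approximate standard error of 0.20.

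Class I heavy chains resemble one another, and fragments from a shared stretch can have been counted for either gene. Of the distinct 50-base stretches in the annotated transcripts, 9.63% for H2-K1 and 12.8% for H2-D1 also occurred in another gene, most often H2-Q10 for the former and H2-Q1 for the latter. For B2m, Psmb9, Psmb10 and Nlrc5 that share was 0, and for Tap1, Tap2 and Psmb8 it was at most 0.655%. Tapbp had 2.87%. The length of 50 bases was chosen for this check, since the read length is not given in the sources used here.

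B2m (chromosome 2, 122147686 to 122153083, plus strand) encodes beta-2 microglobulin, the light chain shared by classical and nonclassical class I molecules. It was listed at 2744 FPKM without and 3068 FPKM with induction, which made it number 3 and number 1 by level among all rows of the authors' deposited table. The log2 change of 0.16 (implied standard error 0.12, interval -0.08 to 0.40) was not called (deposited q = 0.125). Its level was 1.99 times the summed heavy chain level of H2-K1 and the H2-D1 row in non-induced cells and 2.23 times in induced cells. B2m shares its locus in the table with 2 other rows, Patl2 and Trim69, which were each listed at 0.0804 FPKM or less.

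The transporter subunits were called differently, although their changes differed by less than the error of that difference. Tap1 (chromosome 17, 34187553 to 34197225, plus strand) rose from 88.4 to 110 FPKM, a log2 change of 0.31 (implied standard error 0.14, interval 0.05 to 0.58, q = 0.00127 in the authors' deposited table). Tap2 (chromosome 17, 34203527 to 34216321, plus strand) stood at 56.1 FPKM without and 63.2 FPKM with induction. Its log2 change of 0.17 (implied standard error 0.13, interval -0.08 to 0.43) was not called, the authors' deposited table giving q = 0.101. Tap1 was the more abundant subunit in each group, at 1.58 times Tap2 in non-induced and 1.74 times in induced cells. That ratio moved by 0.14 on the log2 scale, with an approximate standard error of 0.19. When the test statistic was read as a normal deviate, Tap1 was no longer called (recomputed q = 0.114).

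Tapbp had the largest change of the 10 members. Tapbp (chromosome 17, 33915899 to 33929292, plus strand) encodes tapasin, which bridges TAP to the heavy chain and edits the bound peptide. It rose from 68.9 to 93.9 FPKM, a log2 change of 0.45 (implied standard error 0.14, interval 0.18 to 0.71). Its q of 0.000287 was the smallest value in the authors' deposited table, shared by 1855 rows. Of all tested genes 10.3% had a larger log2 change. Tapbp was also called when the test statistic was read as a normal deviate (recomputed q = 0.0111).

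**Figure D2:**
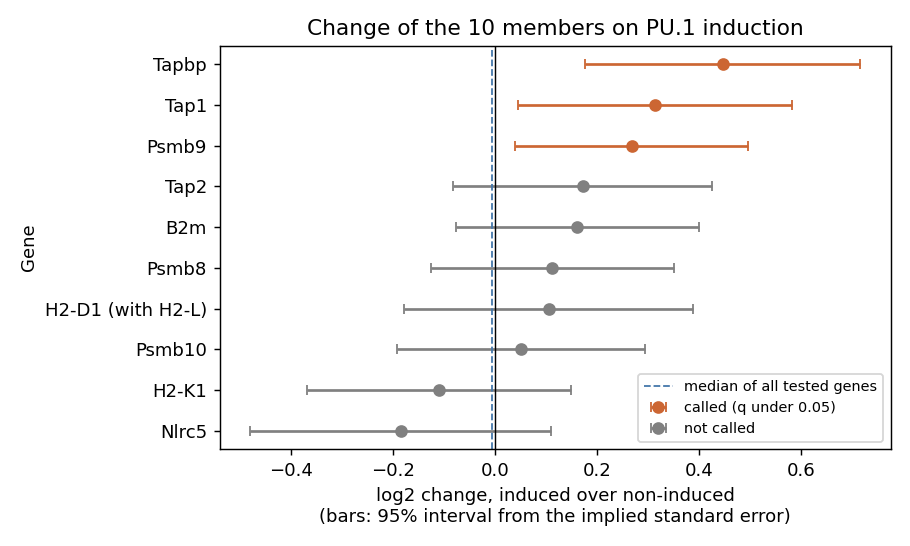
log2 change of each member, induced over non-induced (horizontal axis), with bars for the approximate 95% interval from the implied standard error, and the dashed line at the median of all tested genes (-0.01). Tapbp, Tap1 and Psmb9, the called members, have intervals above 0, and the intervals of the other 7 include 0.

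Among the immunoproteasome subunits, Psmb9 rose and Psmb8 and Psmb10 were not called. Psmb9 (chromosome 17, 34181987 to 34187764, minus strand), which encodes the subunit that replaces the Psmb6 product, rose from 177 to 213 FPKM. Its log2 change was 0.27 (implied standard error 0.12, interval 0.04 to 0.50, q = 0.00515 in the authors' deposited table), and with the statistic as a normal deviate it was not called (recomputed q = 0.113). Psmb8 (chromosome 17, 34197721 to 34201454, plus strand), which encodes the counterpart of the Psmb5 product, stood at 334 FPKM without and 361 FPKM with induction. The log2 change of Psmb8 was 0.11 (implied standard error 0.12, interval -0.13 to 0.35, q = 0.311 in the authors' deposited table). Psmb10, on chromosome 8 (105935735 to 105938444, minus strand) and the counterpart of Psmb7, stood at 82.4 FPKM without and 85.4 FPKM with induction. At 0.05 its log2 change was the smallest of the members in size (implied standard error 0.12, interval -0.19 to 0.29, q = 0.699 in the authors' deposited table).

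The constitutive subunits gave the other side of each pair. Psmb5 stood at 117 and 111 FPKM, Psmb6 at 156 and 150 FPKM, and Psmb7 at 214 and 207 FPKM in non-induced and induced cells of the authors' deposited table, and none was called. Psmb8 made up 74.1% of the Psmb8 and Psmb5 level in non-induced and 76.6% in induced cells. Psmb9 made up 53.1% and 58.6% of its pair with Psmb6. Psmb10 made up 27.8% and 29.2% of its pair with Psmb7. The immunoproteasome transcript was therefore the more abundant one in the pairs of Psmb8 and Psmb9 and the less abundant one in that of Psmb10, in each group. The change of the subunit minus that of its counterpart was 0.19 for Psmb8 (approximate standard error 0.31), 0.32 for Psmb9 (0.17) and 0.11 for Psmb10 (0.18) on the log2 scale. Each difference lay within 1.96 standard errors of 0.

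**Figure D3:**
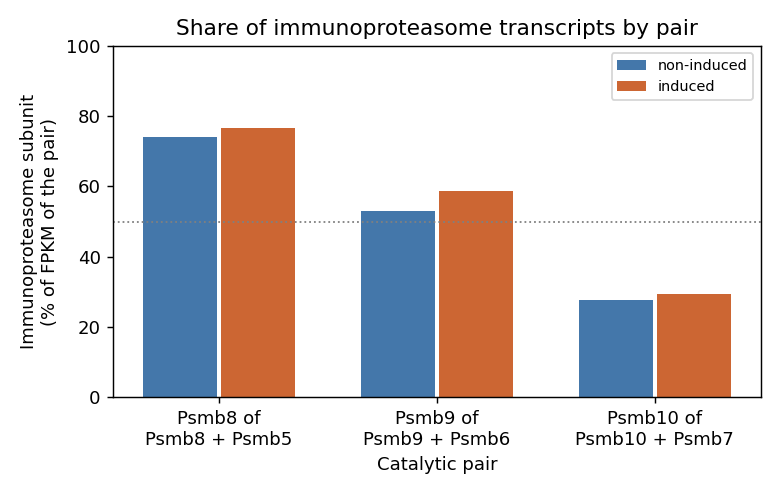
FPKM of each immunoproteasome subunit as a percent of the sum with its constitutive counterpart (vertical axis) in non-induced and induced cells, 1 deposited value per group and no error bar. The share is 74.1% and 76.6% for Psmb8, 53.1% and 58.6% for Psmb9, and 27.8% and 29.2% for Psmb10, and the dotted line marks equal levels.

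Psmb9, Tap1, Psmb8 and Tap2 lie in that order within 34.3 kb of chromosome 17. Psmb9 and Tap1, which are divided by the 225 bases printed above, had log2 changes of 0.27 and 0.31. The ratio of Psmb9 to Tap1 was 2.00 in non-induced and 1.94 in induced cells, a log2 difference of -0.05 with an approximate standard error of 0.18. Psmb8 and Tap2, the other genes of this cluster, had log2 changes of 0.11 and 0.17 and were not called. In GENCODE the annotated Psmb9 and Tap1 genes overlap at their starts, on opposite strands. The use of strand in the counting is not stated, so fragments from that overlap could have been assigned to either gene.

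Nlrc5 (chromosome 8, 94434356 to 94527272, plus strand), the transactivator of class I genes, had the lowest level of the members. It stood at 37.4 FPKM without and 32.9 FPKM with induction. The log2 change of -0.19 (implied standard error 0.15, interval -0.48 to 0.11) was not called, the authors' deposited table giving q = 0.0721. Its value was thus lower in induced cells while 8 of the 10 members had higher values, the median log2 change over all tested genes being -0.01. This contrast is of signs only. Of the 8 members only 3 were called, and 4 of the 10 members had changes within 1 implied standard error of 0.

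The order of levels was the same in both groups except for 1 exchange. From high to low it ran B2m, H2-K1, the H2-D1 row, Psmb8, Psmb9, Tap1, Psmb10, Tapbp, Tap2 and Nlrc5 in non-induced cells, and Tapbp stood above Psmb10 in induced cells. With the spread of a level taken as the implied standard error divided equally between the groups, H2-K1 and the H2-D1 row did not differ beyond 1.96 standard errors in either group. The same held for Tap1 and Psmb10 in non-induced cells, and for Tap1 and Tapbp and for Tapbp and Psmb10 in induced cells. The remaining neighbours differed by more, though Psmb10 and Tapbp in non-induced cells only just (log2 gap 0.258, approximate standard error 0.131). The implied standard error comes from 1 gene compared between the groups. It does not cover errors that differ from gene to gene, so this order is approximate.

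Several other class I genes rose. Of 30 listed nonclassical and class I-like genes, 28 were found in 27 rows, and 14 rows were tested. Of these 8 were higher and 1 was lower (background 19.0% higher and 16.1% lower), with a median log2 change of 0.27. The 13 untested rows were each under 0.15 FPKM in both groups. Genes near 0 are tested more readily when they rise, so the count is of tested rows only. Hfe, which encodes an iron-regulating class I-like protein, rose from 1.42 to 2.92 FPKM, a log2 change of 1.04 (implied standard error 0.20). H2-T24 (log2 0.84, implied standard error 0.49), H2-T10 (0.62, 0.16), H2-M3 (0.57, 0.14), which presents formylated peptides, and H2-K2 (0.57, 0.19) also rose in the authors' deposited table. Mr1, which presents vitamin B metabolites to MAIT cells, fell from 6.15 to 3.94 FPKM, a log2 change of -0.64 (implied standard error 0.17).

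These genes stood far below the classical ones. The 19 rows of other H2 class I genes summed to 405 FPKM without and 487 FPKM with induction, or 0.293 and 0.354 times the sum of H2-K1 and the H2-D1 row. Counts within this group can have been split between copies, since 32.9% of the 50-base stretches of H2-T10 and 34.5% of those of H2-T22 occurred in another gene, and H2-T24 shares its locus with H2-T23. With the statistic read as a normal deviate 4 genes of this list were higher (background 8.97%), H2-T24 no longer among them (recomputed q = 0.309), and at 1.5-fold or more 3 were higher (background 6.34%) and 1, Mr1, was lower (background 3.85%).

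The chaperone partners of tapasin fell. Of 14 tested genes of peptide loading and trimming 2 were higher and 6 lower (background 19.0% and 16.1%), with a median log2 change of -0.12. The chaperone genes Calr (585 to 487 FPKM, log2 -0.27), Canx (261 to 221 FPKM, log2 -0.24) and Pdia3 (395 to 330 FPKM, log2 -0.26) fell in the authors' deposited table. The approximate 95% intervals of these changes nevertheless include 0, with upper ends of 0.02, 0.05 and 0.02. The tapasin-like gene Tapbpl rose from 9.22 to 12.3 FPKM (log2 0.42), as Tapbp did. The ratio of Tapbp to Calr moved from 0.118 to 0.193, a log2 difference of 0.71 with an approximate standard error of 0.20, and that of Tapbp to Pdia3 from 0.174 to 0.285 (0.71, standard error 0.20). These ratios set the member with the largest change against genes that fell. The cytosolic peptidase genes Tpp2 (log2 -0.31) and Lap3 (-0.28) fell in the authors' deposited table. Erap1, the trimming enzyme of the endoplasmic reticulum, had 57.1 and 55.6 FPKM, with no call (deposited q = 0.777 from the authors), and it was named after its value had been seen. With the statistic read as a normal deviate 0 genes of this list were called in either direction (background 8.97% higher and 6.16% lower), and 2 were under 0.05 before adjustment.

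Of 16 other core and assembly genes of the proteasome, all tested, 1 was higher and 1 lower (background 19.0% higher and 16.1% lower), with a median log2 change of -0.09. These were the assembly factor genes Psmg4 (log2 0.27) and Psmg1 (-0.24) in the authors' deposited table, and no alpha or beta subunit of the list was called. Among the 5 activator and inhibitor genes 0 were higher and 1, Psme3 (log2 -0.21), was lower, against the same background, and so few genes say nothing particular about this group. Psme1 and Psme2, whose products form the interferon-inducible activator of the proteasome, stood at 260 and 267 FPKM and at 10.5 and 10.4 FPKM and were not called.

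Of 16 tested transcription factors that act on class I promoters, 7 were higher and 0 lower (background 19.0% and 16.1%), with a median log2 change of 0.17. Nfya rose from 39.3 to 53.5 FPKM (log2 0.45 with an implied standard error of 0.15) and Nfyc from 16.6 to 19.4 FPKM (log2 0.23), while the third NF-Y gene, Nfyb, was not called (authors' deposited q = 0.142). Rfx5, the DNA-binding chain of the RFX complex, rose from 9.08 to 11.7 FPKM (log2 0.37 with an implied standard error of 0.15). Its partners Rfxap (log2 0.06) and Rfxank (0.12) were not called. Irf1, an interferon response factor, rose from 46.8 to 61.8 FPKM (log2 0.40, implied standard error 0.15). Stat2 (log2 0.29), Irf9 (0.28) and Nfkb1 (0.24) also rose in the authors' deposited table, and Ciita, the class II counterpart of Nlrc5, was not tested at 0.0360 and 0.0412 FPKM. With the statistic read as a normal deviate 1 of these factors, Nfya, was called higher (recomputed q = 0.0207), against a background of 8.97%, so the share called was then not above the background. None of them changed by 1.5-fold (background 6.34% higher and 3.85% lower).

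**Figure D4:**
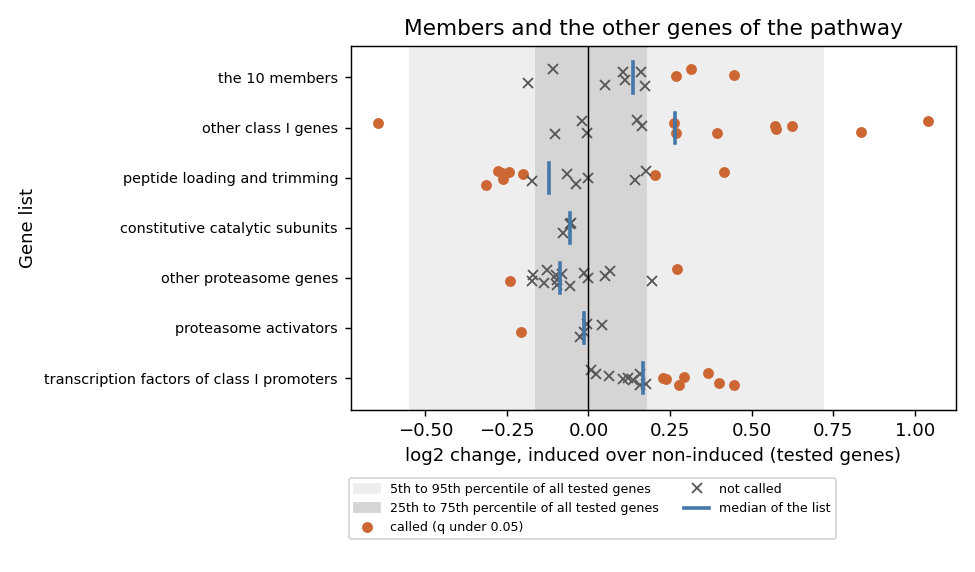
log2 change of each tested gene (horizontal axis) in the 10 members and in the other lists of the pathway, with called genes as filled circles, genes not called as crosses, the median of each list as a vertical bar, and the range of all tested genes in grey. The medians run from -0.12 for peptide loading and trimming to 0.27 for other class I genes, with the members at 0.14.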

How the data were processed

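RNA of 3 non-induced and 3 induced libraries was sequenced from stranded mRNA libraries, per the labels' protocols. Trim Galore 0.2.8.1, TopHat2 2.0.9, Cufflinks, Cuffdiff 2.1.1 and build mm10 come from the submitters' processing notes. The sources used here do not give the annotation or the strand setting. The authors deposited 1 FPKM value per gene and group, a score (Cuffdiff's test statistic), and a p-value and q-value. The authors had tested 10657 of 23793 rows.

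Here log2 changes were computed from the deposited FPKM values with no pseudocount (pandas 2.3.3, numpy 2.4.6, scipy 1.17.1). Intervals are the change plus or minus 1.96 implied standard errors. That the statistic is the log change over its standard error was assumed. The deposited p-value was smaller than the statistic gives as a normal deviate in 92% of tested rows, so calls under normal p-values are given too, Benjamini-Hochberg adjusted over all tested rows. Errors of ratios treat both genes as independent. No test per gene could be made from group values. Depth was estimated from FPKM times transcript length in genes with 1 transcript of at least 1 kb: 70.5% of the lowest non-induced values and 65.2% of the induced lay within 0.15 of a whole fragment, against 30% for even spread. Gene coordinates are from GENCODE M21 on the same build. Members and lists were chosen with earlier results of these data known. All members are named, and of each list the called genes with the largest changes, up to 6, and partners in a complex. The adjustment and the motif search were tested on simulated data. The alternatives tried were q under 0.01, normal p-values, a 1.5-fold minimum, a mean of at least 1 FPKM, rows without a shared locus, pseudocounts of 0.1 and 1 FPKM, and centring on the median change.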

Additional observations from a re-analysis of the deposited data

How the results depend on the processing

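All 77 recomputed log2 changes, medians, pair differences and shares stayed within 1 implied standard error of the reported value (shares within 1 percentage point) under pseudocounts of 0.1 and 1 FPKM and centring on a median. The centres were -0.01 over all tested genes and -0.02 over those of at least 10 FPKM. The members stood at 32.9 FPKM or more, with implied standard errors of 0.12 or more. Such pseudocounts and centres could therefore move the members' changes only slightly, and their staying in place is no evidence of robustness. The cause of each change below was not tested, except that a fold minimum can only remove calls. With the test statistic read as a normal deviate, called higher were 1 of the 10 members in place of 3 (recomputed q of 0.114 for Tap1 and 0.113 for Psmb9), 956 of all tested genes in place of 2023, 4 other class I genes in place of 8, and 1 transcription factor in place of 7. Called lower were 656 of all tested genes in place of 1721. Peptide loading and trimming, other proteasome genes and proteasome activators then had 0 calls in either direction. With at least 1.5-fold, called higher were 0 members, 676 of all tested genes, 3 other class I genes and 0 transcription factors, called lower 410 of all tested genes, and the 3 other lists had 0 calls. With q under 0.01, 1573 of the 10657 tested genes were called higher and 1186 lower. The members called higher still numbered 3. Of peptide loading and trimming genes 1 was called higher and 4 lower, and other proteasome genes and activators had 0 calls. Without rows that share a locus, 1 peptide loading and trimming gene was called higher and 6 lower, and 1714 of all remaining tested genes higher and 1488 lower. A mean of at least 1 FPKM moved no count by over 1.5 times. Leaving out the H2-D1 row, an alternative added after seeing the data, left 3 members higher and 0 lower. That row was not called, so leaving it out could not change these counts. Leaving out single libraries was not run, since the table holds group values. No paired analysis was possible because the table carries no value per library. The members' group values rest on an estimated 12858 fragments or more, a depth inferred from the FPKM values, and no other depth was tried.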

Other observations

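The stretch of chromosome 17 from Tapbp to H2-M3 (33919477 to 37274485 in the file's mm10 coordinates), chosen after the data were seen, held 102 tested rows, of which 32 were higher and 13 lower, with a median log2 change of 0.07. Without the members and the other class I genes, 85 rows were left, 22 of them higher (25.9%, against 19.0% of all tested genes) and 13 lower, with a median log2 change of -0.00158. Among all tested genes with a mean of at least 50 FPKM, the range in which 9 of the 10 members lie, 366 of 2098 were higher (17.4%) and 328 lower.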
